A study of Mus musculus with 45 samples.

Results

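Wild-type and factor-carrying mouse neural progenitor cells were compared after 2 days in one and the same reprogramming medium, so that the compared groups differed by genotype. The comparison rested on 7 of the 45 libraries of the series, chosen by their labels as all libraries of day 2 in FBS-LIF with doxycycline. All cells were neural progenitors (NPCs) derived from an Oct4-GFP embryonic stem cell line named O4G. One line, labelled OKMS-Luciferase-AS, carried a doxycycline-inducible set of factors named for Oct4 (Pou5f1), Klf4, Myc and Sox2. The second, labelled OKS-Luciferase-AS, lacked Myc in its name, and the third was labelled wild type (WT). The labels do not say what the luciferase element does, whether WT cells carry a construct without factors, whether a line was 1 clone, or whether replicates were separate cultures, so p-values measure only the spread between these libraries. On gelatin, cells passed from NPC medium (EGF and FGF-2) into serum medium with LIF and 1 µg/mL doxycycline, WT cells included. The 8 libraries of uninduced NPCs in NPC medium, 4 per chemistry with 2 WT, 1 OKMS and 1 OKS each, gave the baseline.

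Expression was read by nanopore sequencing in 2 ways that are never mixed below unless stated. R10 libraries were PCR cDNA of total RNA (2 WT, 1 OKMS and 1 OKS at day 2), and R9 libraries were direct cDNA of poly(A)-enriched RNA (1 WT, 1 OKMS and 1 OKS). The factor group of each chemistry thus pooled 1 OKMS and 1 OKS library, and the tests counted the difference between these lines as spread. A gene that differed between OKMS and OKS was therefore harder to call. The labels do not tell whether libraries of the 2 chemistries came from the same RNA. Depth at day 2 was 1265173 (OKMS) to 3035548 (WT replicate 3) reads in R10 and 706838 (WT) to 884894 (OKMS) reads in R9, so 1 read in R9 WT was worth 1.41 CPM, the unit of the deposited gene table (reads scaled to the library total). The labelled cell type was checked with 23 progenitor marker genes, whose summed level was 10393 to 14344 CPM in the 8 NPC libraries and 598 to 877 CPM in 3 O4G stem cell libraries. WT R10 replicate 2 stood apart from WT replicate 3, with Malat1 at 72937 against 13043 CPM and 3074 of 15402 genes (20.0%) at least 1 log2 unit away. By the same count WT replicate 3 and OKS were 19.04% apart, WT replicate 2 and OKS 27.7%, OKMS and OKS 24.9%, and OKMS and the WT libraries 35.9% and 41.8%, so that WT replicate 3 was no further from OKS than from the other WT library. The mitochondrial share of reads was 0.319% and 0.165% in the WT R10 libraries against 1.51% (OKMS) and 1.64% (OKS), and 0.688% to 0.727% in R9. Those R10 shares were already apart in uninduced cells, at 0.273% and 0.153% in WT against 1.08% and 1.12%, so that in R10 library set and genotype cannot be told apart.

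Pou5f1 and Sox2 are transcription factors that bind DNA together on a composite element, Klf4 is a zinc-finger factor, and Myc raises genes of growth and division. Forced together in somatic cells they lead, in some cells and over many days, to induced pluripotent stem cells, and changes in the cell cycle and in cell shape are known to come before the stem cell network. Neural progenitors divide under EGF and FGF-2. Serum and LIF are known to push them out of the cycle and toward astrocytes, which is the background against which the factors act here.

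The promoters below are of genes described later, 4 called in R10 (Nrarp, Hes5, Cdc20 and Mcm6) and 2 not called (Dll1 and Cdk1), and are shown for the motifs of their groups. Each is the 250 bases before the annotated start (RefSeq, GRCm38.p6), written 5′ to 3′ along the gene, with matches to the motifs named beside each gene in capitals and all else, other motifs included, in lower case. Nrarp (chr2:25180508-25180757, plus strand) and Dll1 (chr17:15375824-15376073, minus strand) belong to the Notch pathway, and their capitals mark in turn the Sox-Oct composite element and the octamer ATGCAAAT, which is the Pou5f1 part of that element.
Nrarp: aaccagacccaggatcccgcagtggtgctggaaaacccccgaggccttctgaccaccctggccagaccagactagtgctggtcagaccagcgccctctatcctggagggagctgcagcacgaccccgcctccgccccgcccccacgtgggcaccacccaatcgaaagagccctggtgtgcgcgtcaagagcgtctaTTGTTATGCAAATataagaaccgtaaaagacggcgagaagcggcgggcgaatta
Dll1: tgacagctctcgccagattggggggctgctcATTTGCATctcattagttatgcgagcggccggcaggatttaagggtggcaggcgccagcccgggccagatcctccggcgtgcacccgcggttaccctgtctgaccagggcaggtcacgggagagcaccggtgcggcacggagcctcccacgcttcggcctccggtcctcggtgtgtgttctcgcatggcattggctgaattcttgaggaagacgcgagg
Hes5 (chr4:154960673-154960922, plus strand), a target of Notch, has 2 matches to the letters GTGGGAA, which the Notch partner Rbpj binds.
Hes5: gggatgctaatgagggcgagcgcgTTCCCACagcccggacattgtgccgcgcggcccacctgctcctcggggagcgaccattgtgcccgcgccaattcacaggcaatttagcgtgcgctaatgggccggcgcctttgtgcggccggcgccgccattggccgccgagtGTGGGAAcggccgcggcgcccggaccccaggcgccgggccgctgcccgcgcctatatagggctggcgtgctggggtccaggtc
Cdc20 (chr4:118437344-118437593, minus strand) and Cdk1 (chr10:69352913-69353162, minus strand) act in mitosis, and their capitals mark the CCAAT box and the cell cycle element TTTGAA (CHR).
Cdc20: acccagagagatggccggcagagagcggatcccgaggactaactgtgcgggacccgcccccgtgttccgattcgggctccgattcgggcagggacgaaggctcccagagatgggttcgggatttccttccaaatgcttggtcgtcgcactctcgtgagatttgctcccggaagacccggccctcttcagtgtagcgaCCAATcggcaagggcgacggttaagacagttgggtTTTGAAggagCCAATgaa
Cdk1: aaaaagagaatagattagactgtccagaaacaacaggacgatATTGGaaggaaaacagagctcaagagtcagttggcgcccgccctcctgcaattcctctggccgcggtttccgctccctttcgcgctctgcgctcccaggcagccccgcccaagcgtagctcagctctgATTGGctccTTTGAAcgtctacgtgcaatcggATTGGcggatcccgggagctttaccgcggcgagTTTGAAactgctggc
Mcm6 (chr1:128359706-128359955, minus strand), a subunit of the replication helicase, has 1 match to the E2F letters TTTCGCGC.
Mcm6: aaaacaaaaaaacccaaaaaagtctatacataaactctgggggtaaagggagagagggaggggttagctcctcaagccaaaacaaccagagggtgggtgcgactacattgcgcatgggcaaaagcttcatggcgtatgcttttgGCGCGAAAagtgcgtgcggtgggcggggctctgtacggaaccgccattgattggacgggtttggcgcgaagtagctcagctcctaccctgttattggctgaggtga
The Cdk1 promoter also holds the E2F letters. All motifs were searched on both strands, and matches are letters in a window, not binding.

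With factors, genes of cell division, 3 targets of Notch and a set of genes near 0 in WT were higher at day 2, and few genes were called lower. Of the 15402 genes tested in R10, 110 (0.714%) were called higher and 4 (0.026%) lower by limma. A call needed an adjusted p under 0.05 and a difference of at least 1 between mean log2(CPM + 1) values, factor minus WT, and all differences below are on that scale unless a fold is named. At an unadjusted p under 0.05 there were 2344 genes (15.2%). Count models on the recovered reads gave more calls, 291 higher (1.89%) and 43 lower (0.279%) by edgeR, and 378 (2.66%) and 86 (0.605%) by DESeq2. Scaling moved the split: after median centring, which shifted the median difference of all genes from 0.09 to -0.10, 289 genes (1.88%) were called higher and 110 (0.714%) lower.

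Leaving out 1 R10 library leaves an arm of 1 and a single residual degree of freedom, a size at which calls lost by limma say little about stability. Without WT replicate 2, the library that stood apart, 115 genes were called and 90 of the 114 were among them. Without WT replicate 3, OKMS or OKS, limma called 0 genes (1452, 1384 and 3192 at an unadjusted p under 0.05), as it did after thinning to the shallowest library (1946). All 114 genes kept their sign in every one of these fits. Where the R10 factor libraries of a gene all lie on one side of its WT libraries, leaving 1 out cannot change the sign. The kept signs therefore say little about stability. In R9, limma called 0 of 17695 genes (0% in each direction, 1507 at an unadjusted p under 0.05, 8.52%), while edgeR called 126 higher (0.712%) and 7 lower (0.0396%).

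The other chemistry gave the same sign for 100 of the 114 genes (87.7%). The exact (Clopper-Pearson) 95% interval, 80.3% to 93.1%, takes the genes as independent. They were read in the same libraries, and some belong to the same gene lists. The interval is therefore no measure of how this share would vary between cultures. A gene with no read in the R9 WT library, such as Fetub or Hes5, could not be lower with factors there. Over all 14715 genes tested in both, the sign was shared by 62.2%. Of the genes called higher 96 of 110 shared it, and of those called lower 4 of 4. Lower calls of the other settings gave 24 of 37 by edgeR, 53 of 80 by DESeq2 and 73 of 100 after median centring, beside 63.4%, 63.6% and 63.7% of all genes. A count that uses no test described the same libraries: 615 genes (4.18% of 14715) had every factor library above every WT library of its chemistry with a mean difference of at least 1 in both, and 243 genes (1.65%) had the reverse. These genes are called apart in both chemistries below. Protein-coding genes made up 518 of the 615 (84.2%) and 139 of the 243 (57.2%), beside 81.0% of all genes tested in both.

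**Figure D1:**
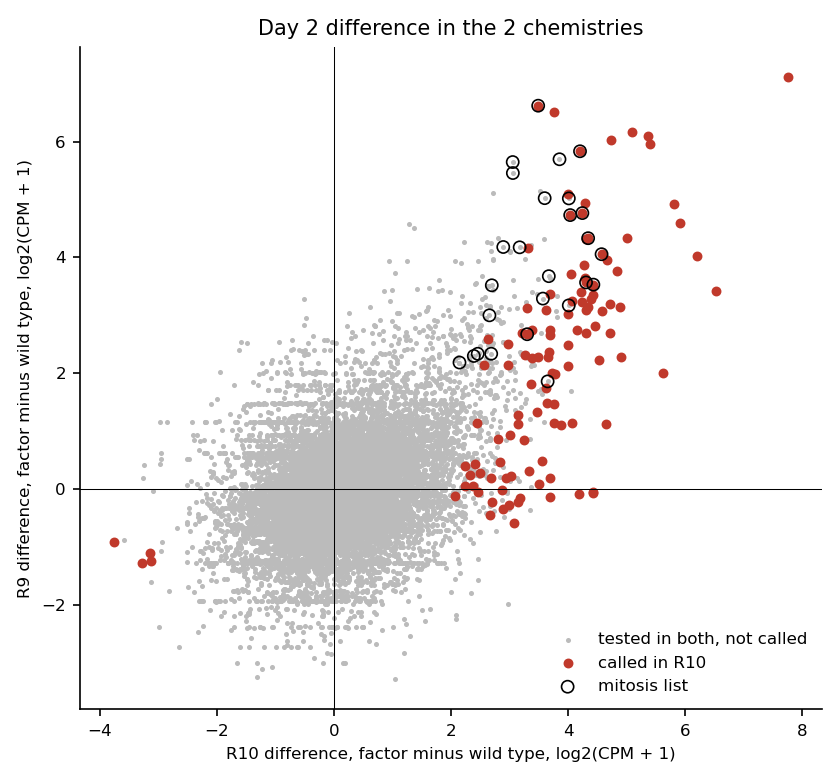
Difference between factor and wild-type libraries at day 2 in R10 (x axis) and R9 (y axis), both as mean log2(CPM + 1) differences, 1 point per gene tested in both. Genes called in R10 are red and the 26 genes of the mitosis list are ringed, and all 26 rings lie above 2 on the x axis and above 1 on the y axis.

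The introduced factors were examined first, as the check of the labels. Pou5f1 (chromosome 17, 35505307 to 35510780) held 1.17 and 1.32 CPM in the WT R10 libraries, 126 in OKMS and 141 in OKS, and 1.41, 52.0 and 62.8 CPM in the WT, OKMS and OKS R9 libraries. Klf4 (chromosome 4, 55527143 to 55532562) held 0 and 0.988 CPM in WT, 141 in OKMS and 117 in OKS, and 4.24, 59.9 and 50.8 CPM in R9. For both genes all factor libraries lay above all WT libraries in each chemistry, with R10 differences of 5.91 ± 0.49 (SE, limma adjusted p = 0.0018) and 6.52 ± 0.57 (adjusted p = 0.0019). Uninduced OKMS and OKS cells held 2.92 to 5.27 CPM of the pair in R10, against 0 to 0.953 in WT, whereas in R9 uninduced WT cells held as much (1.34 to 3.87 CPM) as the factor lines (0 to 5.06 CPM).

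Sox2 is already active in neural progenitors. It held 58.7 and 70.2 CPM in WT, 101 in OKMS and 138 in OKS in R10, and 76.4, 121 and 96.3 CPM in R9, a difference of 0.87 that was not called (adjusted p = 0.32). Myc held 5.87 and 14.8 CPM in WT, 103 in OKMS and 25.0 in OKS, and 7.07, 74.6 and 20.1 CPM in R9. OKMS libraries were highest and OKS libraries, whose set lacks Myc in name, still lay above WT, while the pooled difference of 2.32 was not called (adjusted p = 0.16). Within each chemistry every uninduced NPC library held more Myc than every day 2 library, OKMS included. The NPC libraries held 138 to 211 CPM in R10 and 75.9 to 136 CPM in R9, where the lowest was close to OKMS.

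The gene value counts reads wherever they fall on the locus, and the deposited transcripts tell which full structures were assigned. Over the 52 deposited Pou5f1 transcripts the summed TPM in R10 was 9.57 in OKMS and 12.1 in OKS. These sums were 7.56% and 8.58% of the gene CPM, beside 86.4% and 93.2% in the O4G stem cell R10 libraries. In the WT R10 libraries they were 164% and 146%, at gene levels of 1.17 and 1.32 CPM. TPM is scaled by transcript length and gene CPM is not, so these percents are ratios across unlike scales and not shares of reads. Transcripts that hold the whole Pou5f1 coding sequence summed in R10 to 2.57 TPM in OKMS, 0 in OKS and 1.92 in each WT library, and to 868 and 930 TPM in stem cells. In R9 they summed to 1.80, 0 and 2.40 TPM in OKMS, OKS and WT. The Pou5f1 locus thus held many gene reads in factor cells and few TPM in deposited transcripts, and those with the whole coding sequence were about as low as in WT. Klf4 transcripts in R10 summed to 8.04% and 8.14% of the gene CPM in OKMS and OKS, with 16% and 18.9% in stem cells, a smaller gap. For Sox2 the R10 ratio was 9.68% in OKMS and 48.7% in OKS beside 31.1% and 26.3% in WT. In R9 it was 13.1% in OKMS and 34.4% in OKS beside 41.7% in WT, so that OKS was not above WT there. For Myc the R10 ratio was 17.5% in OKMS and 61.9% in OKS beside 35.2% and 32.3% in WT, and the R9 ratio 14.1%, 36.2% and 0% in OKMS, OKS and WT. Over 6473 to 7330 genes per day 2 library the median ratio was 59.4% to 67.1%, and 9.83% to 16.2% of genes were under 20%. Reads of introduced copies can be counted on these loci, and the files do not tell them from reads of the endogenous genes.

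**Figure D2:**
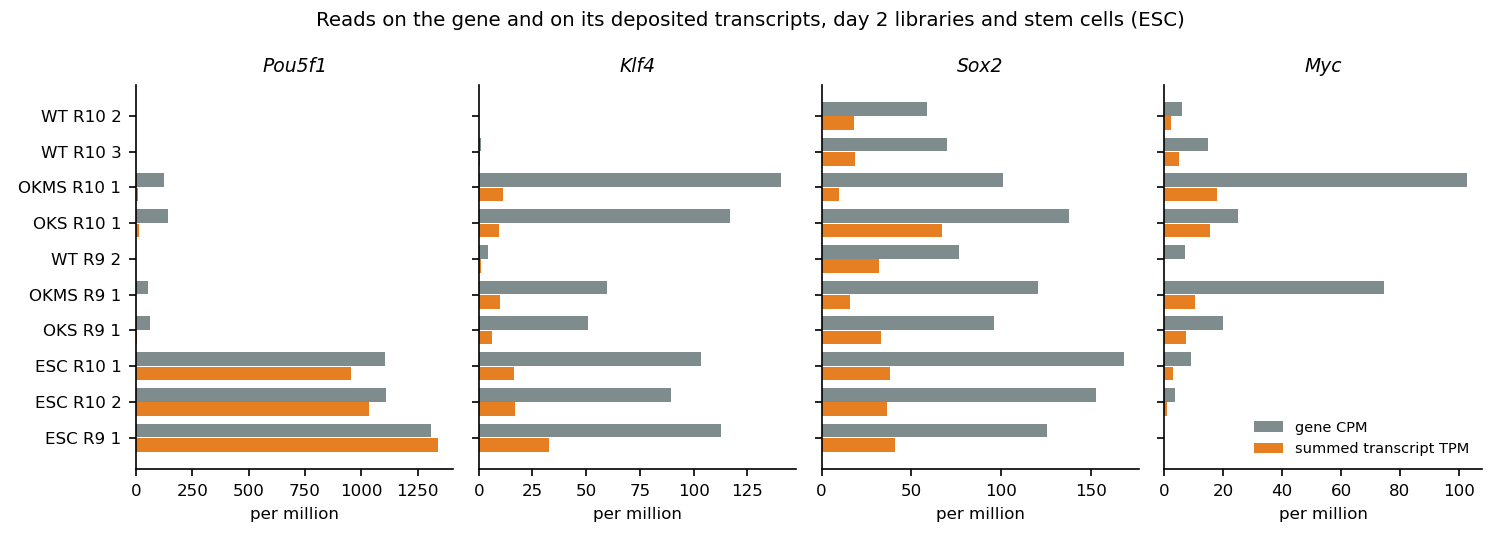
Gene level in CPM (grey) and summed TPM of the deposited transcripts (orange) of the introduced factors in the 7 day 2 libraries and 3 O4G stem cell libraries, 1 bar per library and no error bar. In factor libraries Pou5f1 has a grey bar and almost no orange one, while in stem cells the bars are of like length.

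Several genes were at or near 0 in WT in both chemistries and well above it with factors. Fetub, which encodes a secreted protease inhibitor of the fetuin family, held 0 CPM in the 3 WT libraries, 145 and 319 CPM in OKMS and OKS R10, and 144 and 132 CPM in R9. Aldh3a1, an aldehyde dehydrogenase, was at 0 in all WT libraries and at 28.5 and 59.0 CPM in R10 and 30.5 and 123 CPM in R9, at least 81.4-fold higher in R10 when WT is set at 3 reads over both libraries. Pga5, a pepsinogen, was likewise at 0 in WT and at 56.9 and 10.8 CPM in R10, at least 63.1-fold higher, and at 15.8 and 4.01 CPM in R9. In these 3 genes factor and WT libraries did not overlap, but the genes were picked for large increases over WT, so this adds no support. Apela, which encodes a small secreted ligand of the apelin receptor, held 0 and 0 CPM in WT against 66.4 and 79.1 in R10, and 1.41 against 52.0 and 28.1 in R9. O4G stem cells held Fetub at 36.0 to 73.9 CPM.

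OKMS and OKS libraries differed in which of these genes was high. Trh (thyrotropin-releasing hormone) was at 18.2 CPM in OKMS and 218 in OKS in R10 and at 7.91 and 103 CPM in R9, with WT at 0 to 0.329. Actg2, a smooth-muscle actin, was at 33.2 in OKMS and 67.2 in OKS, and at 35.0 and 143 CPM in R9, with WT at 0 to 0.988. Pllp, a membrane protein of myelin, ran the other way, at 190 and 68.3 CPM in R10 and 116 and 38.8 in R9, with WT at 0 to 2.64. With 1 library per system and chemistry these orders have no test.

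Emp1, an epithelial membrane protein, was at 5.09 and 11.5 CPM in WT against 283 and 237 in R10, and at 73.6 against 450 and 291 in R9, 31.3-fold and 5.04-fold higher. Avil, which encodes the actin-binding protein advillin, was at 4.31 and 0.329 CPM in WT against 49.0 and 113, and at 1.41 against 32.8 and 30.8 in R9. 1700019D03Rik was at 0 in all WT day 2 libraries and at 50.6 and 19 CPM in R10 and 27.1 and 13.4 in R9, but every uninduced NPC library, WT included, held 4.01 to 23.8 CPM. It was thus at 0 only in WT at day 2, whereas Fetub, Aldh3a1, Pga5 and Actg2 were at 0 to 8.79 CPM in all NPC libraries. The 10 genes from Fetub to 1700019D03Rik were all called, with differences of 4.71 to 7.76 and adjusted p from 0.0011 to 0.026.

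**Figure D3:**
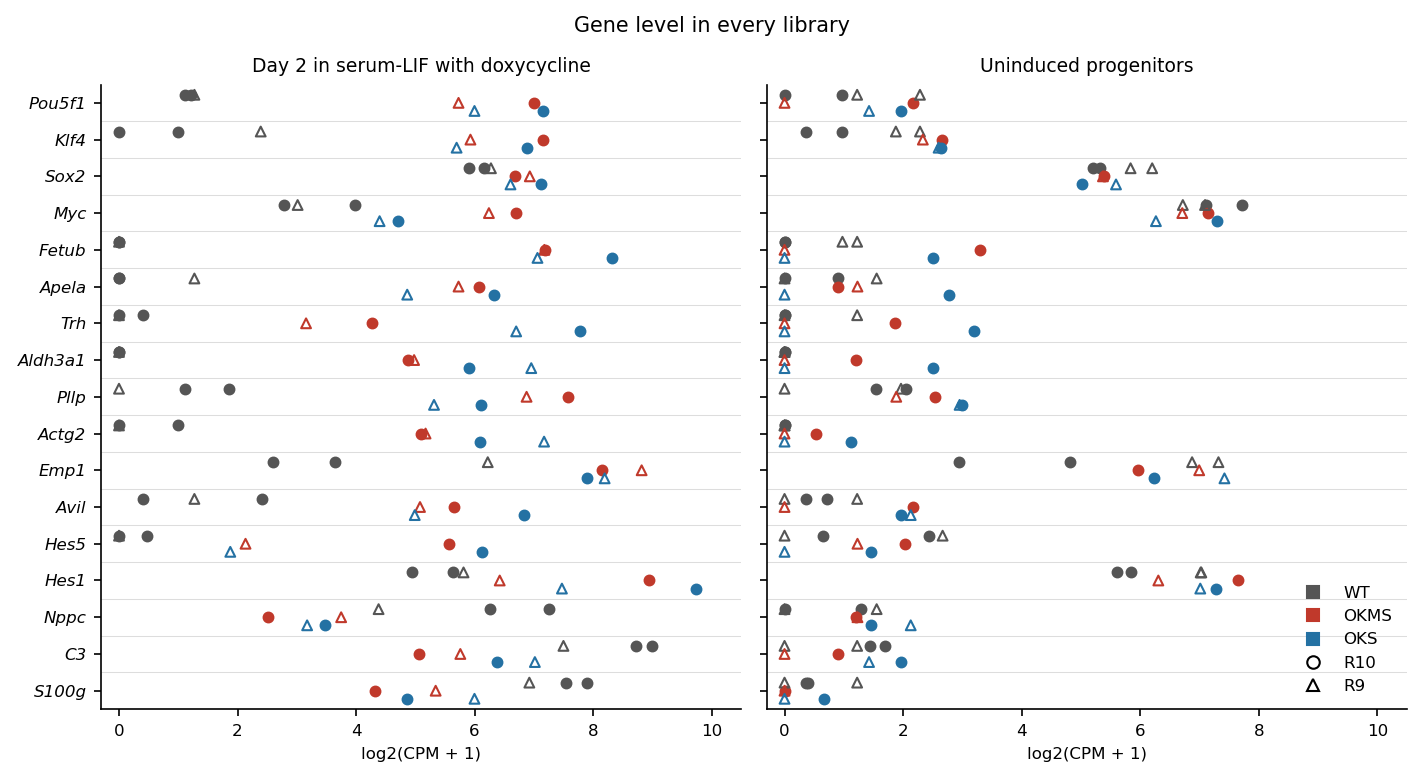
Level of 17 genes in each library as log2(CPM + 1), at day 2 (left) and in uninduced progenitors (right), with colour for genotype, filled circles for R10 and open triangles for R9. The day 2 factor points of Fetub, Apela and Pou5f1 lie to the right of every wild-type point, and those of C3 and S100g to the left within each chemistry.

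Genes of mitosis were higher with factors in every library. Of 26 mitosis genes, 26 were apart in both chemistries and 9 were called by limma in R10 (24 by edgeR), beside 4.18% and 0.714% of all genes. Their median difference was 3.58 in R10 and 3.87 in R9, beside 0.09 and -0.03 over all genes. In bulk RNA, fewer dividing cells and less of these RNAs per cell cannot be told apart. Cdc20, the activator of the anaphase-promoting complex, held 2.74 and 2.31 CPM in WT, 154 in OKMS and 31.7 in OKS, and 4.24, 160 and 68.2 CPM in R9 (R10 difference 4.34 ± 0.71, adjusted p = 0.0255). Cenpa, the centromeric histone, held 1.57 and 3.29 CPM in WT, 163 and 36.9 with factors, and 4.24, 184 and 40.1 CPM in R9 (4.57 ± 0.70, adjusted p = 0.022). In both genes, and in all 26, OKMS was highest, OKS was between and WT was lowest in each chemistry.

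The other called members were Mki67, Top2a, Ccnb2, Ube2c, Birc5, Nusap1 and Racgap1, which act on chromosomes, the cyclin B kinase, the spindle or cytokinesis, with differences of 3.30 to 4.43 and adjusted p of 0.024 to 0.044. Bub1b of the spindle checkpoint was at 1.57 and 1.32 against 91.7 and 15.7 CPM (adjusted p = 0.053), and the kinase gene Plk1 at 3.13 and 1.98 against 140 and 21.6 CPM (adjusted p = 0.054). Cdk1, whose promoter is shown above, was at 16.8 and 24.7 CPM in WT, 233 in OKMS and 57.8 in OKS, and at 32.5, 252 and 112 CPM in R9 (2.45, adjusted p = 0.10). Without WT replicate 2, 15 members were called, without WT replicate 3, OKMS or OKS 0 were, and 24 to 26 stayed apart in both chemistries when any 1 library was left out.

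The baseline shows what the difference consisted of. Uninduced NPCs of all genotypes held a summed 4405 to 5522 CPM over the 26 genes. At day 2 the sum was 117 and 103 CPM in the WT R10 libraries, 3018 in OKMS and 634 in OKS, and 103, 2547 and 881 CPM in R9. The median member stood at 1.86% of its progenitor level in WT, 67.3% in OKMS and 14.1% in OKS in R10, and at 1.27%, 56.9% and 19.1% in R9. All 26 members were under their progenitor level in WT and in OKS, and 25 (R10) and 24 (R9) were in OKMS. Factor cells therefore held more of these RNAs than WT at day 2 and, apart from 1 or 2 members in OKMS, no more than before the medium change.

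DNA replication genes were largely higher with factors too, by less. Of 30 genes 26 were apart in both chemistries, 3 were called by limma and 15 by edgeR, with median differences of 2.35 in R10 and 1.63 in R9. Of all genes 4.18% were apart and higher, and 0.714% were called higher by limma and 1.89% by edgeR. In 27 of the 30 all factor libraries lay above the WT libraries of their chemistry, and in Orc1, Chaf1a and Gins1 the OKS library of 1 chemistry did not. Pclaf, a partner of the sliding clamp PCNA, held 7.05 and 2.31 CPM in WT, 336 in OKMS and 55.2 in OKS, and 1.41, 340 and 72.2 CPM in R9 (4.74 ± 0.78, adjusted p = 0.0255). Rrm2, the inducible subunit of ribonucleotide reductase, held 6.65 and 4.28 CPM in WT against 263 and 41.8, and 5.66 against 190 and 20.1 in R9 (adjusted p = 0.040). Mcm6 held 5.87 and 5.27 CPM in WT against 118 and 37.7, and 15.6 against 106 and 30.8 in R9 (adjusted p = 0.036). The median member stood at 8.45% of its progenitor level in WT, 84.4% in OKMS and 20.9% in OKS in R10, and at 12.1%, 78.6% and 23.0% in R9. Without the OKMS R9 library, which leaves OKS R9 alone against WT, 13 genes were apart in place of 26. Without WT replicate 2, 5 were called and 28 apart.

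The promoters of these groups were compared with all promoters of the same length. A CCAAT box was found in 20 of the 22 mitosis genes with a promoter in the table (90.9%), in 15 of 25 replication genes (60.0%) beside 34.5% of all 27025 promoters and 37.0% of those of genes tested in both chemistries. The CHR letters were in 8 of the 22 mitosis promoters (36.4%), beside 16.3% of all and 10.1% of tested genes. The E2F letters TTTCGCGC were in 4 of the 25 replication promoters, those of Mcm5, Mcm6, Orc1 and Rfc3, beside 0.255% of all and 0.523% of tested genes. In Cdc20 the CHR letters lay 18 to 13 bases before the start, between CCAAT boxes at 53 to 49 and 8 to 4.

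**Figure D4:**
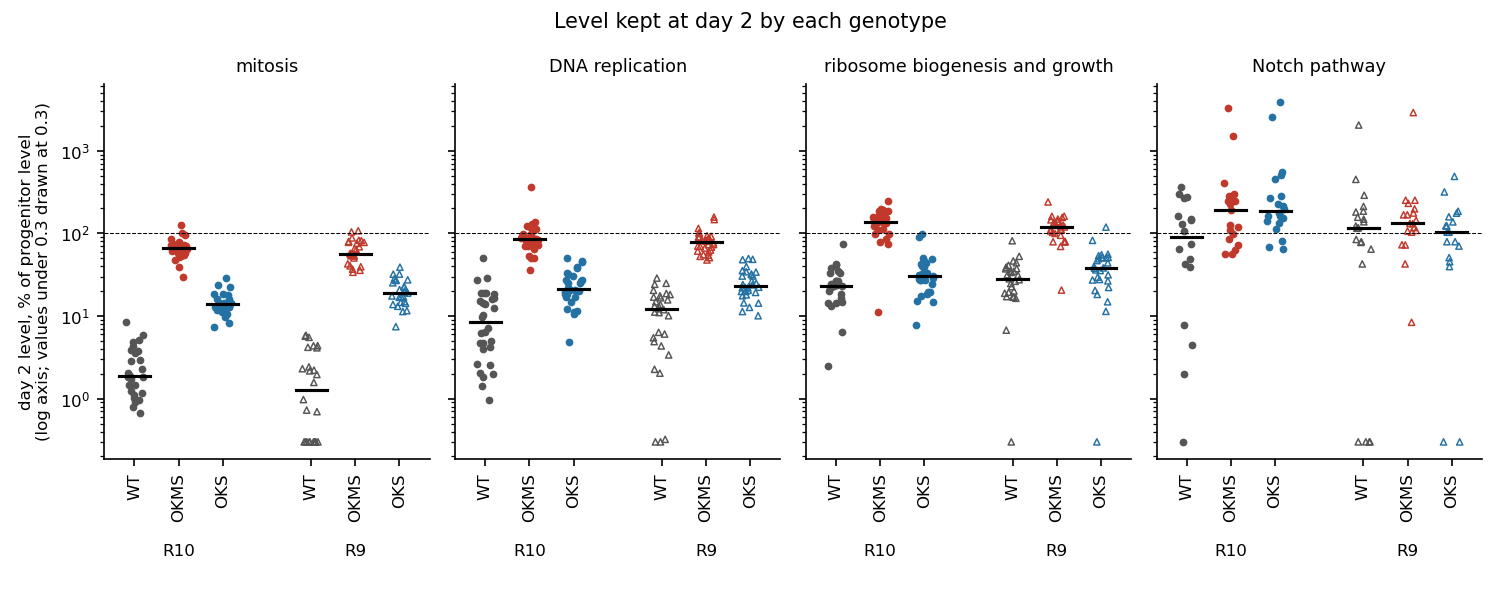
Day 2 level of each gene of 4 lists as a percent of its mean level in uninduced progenitors of the same genotype and chemistry, on a log axis, 1 point per gene with the median as a bar and 100% as a dashed line. The mitosis medians are 1.86% in wild type, 67.3% in OKMS and 14.1% in OKS in R10, whereas the Notch medians lie near or above 100% in every group.

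Growth genes differed in OKMS far more than in OKS. Of 27 genes of ribosome biogenesis and growth, 0 were called by limma (11 at an unadjusted p under 0.05, 3 by edgeR and 5 by DESeq2), 7 were apart in both chemistries, and the median difference was 1.24 in R10 and 1.00 in R9. Of all genes 15.2% were at an unadjusted p under 0.05, 1.89% were called higher by edgeR, 2.66% by DESeq2, and 4.18% were apart and higher. Their median differences were 0.09 and -0.03. The summed level of the 27 was 3204 and 3488 CPM in WT, 13075 in OKMS and 3600 in OKS in R10, and 3746, 13133 and 4727 CPM in R9, against 11252 to 12987 CPM in uninduced NPCs. The OKMS libraries were thus slightly above the progenitor range and the OKS libraries near WT. Without the OKMS R10 or the OKMS R9 library, 2 or 3 genes were apart in place of 7, and without the OKS R10 or OKS R9 library 11 were. Srm, spermidine synthase and a known Myc target, held 7.44 and 11.5 CPM in WT, 242 in OKMS and 19 in OKS, and 49.5, 354 and 66.9 CPM in R9 (adjusted p = 0.20). Npm1, a nucleolar chaperone, held 280 and 351 CPM in WT, 2718 in OKMS and 487 in OKS. All 27 genes were above OKS in OKMS in both chemistries, as were 26 of 26 mitosis and 30 of 30 replication genes, and with 1 library per system this order has no test. Ccnd1 (cyclin D1) was closer between the lines, at 8.22 and 13.5 CPM in WT against 77.5 and 50.8 in R10 and 34 against 103 and 70.9 in R9 (adjusted p = 0.053), and far under its 379 to 695 CPM in uninduced NPCs.

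Notch signalling runs from ligands (Dll and Jag) through Notch receptors and Rbpj to Hes and Hey repressors. In neural progenitors it is known to hold back differentiation. Of 23 members tested in R10, 3 were called higher and 0 lower, and of 22 tested in both chemistries 6 were apart, all higher (without WT replicate 2, 2 and 6), beside 0.714% called higher and 4.18% apart and higher of all genes. The 3 were targets of the pathway. Hes1 (chromosome 16, 30064194 to 30067803) held 48.5 and 29.6 CPM in WT, 492 in OKMS and 852 in OKS, and 55.2, 84.8 and 176 CPM in R9 (4.06 ± 0.43, adjusted p = 0.00435). Hes5 held 0.391 and 0 CPM in WT, 46.6 and 69.0 with factors, and 0, 3.39 and 2.67 CPM in R9 (5.61 ± 0.59, adjusted p = 0.00435). Nrarp, a feedback inhibitor, held 0 and 0.329 CPM in WT, 19.8 and 8.58 with factors, and 0, 13.6 and 4.01 CPM in R9 (3.61 ± 0.64, adjusted p = 0.037). Factor and WT libraries did not overlap for any of the 3, but they were named for their R10 calls, so this adds no support there. In R9 Hes5 rests on 3 and 2 reads, and Hes5 and Nrarp, at 0 in WT, could not be lower with factors.

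Ligands and receptors did not share one pattern. The ligand genes Dll1 and Jag1 were apart in both chemistries without a call, Dll1 at 0.783 and 0.329 against 4.74 and 11.6 CPM (adjusted p = 0.12) and Jag1 at 4.70 and 1.98 against 22.9 and 19.4 CPM (adjusted p = 0.11). In R9 Jag1 was at 7.07 against 15.8 and 18.7 CPM, and Dll1 at 0 against 1.13 and 5.35 CPM, where the OKMS value is 1 read. The receptor gene Notch1 held 152 and 69.5 CPM in WT and 60.9 and 111 with factors, and Rbpj held 68.5 and 72.5 against 77.5 and 76.5. Hes1 was already higher in uninduced factor cells of R10, at 199 and 154 CPM against 48.0 and 56.2, and not in R9, at 78.1 and 128 against 130 and 129. Hes5 and Nrarp were not higher in factor NPCs, with 0.574 to 4.45 and 5.26 to 9.85 CPM over the 4 R10 NPC libraries. Nrarp was thus at 4.01 to 19.8 CPM with factors beside 5.26 to 10.1 CPM in all NPC libraries, and close to 0 in WT at day 2. Hes5 with factors was above all NPC libraries in R10. In R9 it was above the NPC library of its own line (1.35 CPM in OKMS and 0 in OKS) and under 1 of the WT NPC libraries (5.35 and 0 CPM).

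Of the 21 Notch genes with a promoter in the table, the octamer was found in those of Dll1 and Nrarp, against 1.61% of all promoters and 13 of the 407 promoters (3.19%) of the genes apart and higher. The Sox-Oct composite was found in 14 of all 27025 promoters (0.0518%). Among those 407 promoters 1 held it, that of Nrarp, 54 to 42 bases before the start. The Rbpj letters were in 4 of the 21 (Lfng, Hes5, Hes7 and Hey2) and in 5.41% of all, and Hes5 held them at 226 to 220 and at 83 to 77 bases before the start. The short Klf letters GGGTGG were in 34.6% of the promoters of genes apart and higher and in 32.8% of those of all genes tested in both chemistries.

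The stem cell network was far under its stem cell level at day 2 with and without factors. Its 32 genes, leaving out the introduced factors, summed to 145 and 162 CPM in WT, 356 in OKMS and 223 in OKS in R10, against 16015 and 14300 CPM in O4G stem cells. In R9 it was 419 CPM in WT, 554 in OKMS and 386 in OKS, so that OKS lay under WT there. In 14 of the 32 all 7 day 2 libraries had at most 3 reads, Lin28a, Dppa3 and Sall4 among them. Of 14 members tested in R10 limma called 0 (5 at an unadjusted p under 0.05, 2 by edgeR and 4 by DESeq2). Of 13 tested in both chemistries 3 were apart and higher. Of all genes 15.2% were at an unadjusted p under 0.05, 1.89% were called higher by edgeR, 2.66% by DESeq2, and 4.18% were apart and higher. Fbxo15, an early reporter gene of reprogramming, held 0.783 and 0 CPM in WT, 17.4 in OKMS and 3.73 in OKS, and 0, 18.1 and 2.67 CPM in R9 (adjusted p = 0.13). Tdh, the threonine dehydrogenase of mouse stem cells, held 0.783 and 0.659 CPM in WT, 8.69 and 13.4 with factors, and 1.41, 5.65 and 10.7 CPM in R9 (adjusted p = 0.071). Nanog held 0.391 and 1.65 CPM in WT and 3.16 and 2.99 with factors, a difference of 1.09 at counts of 1 to 8 reads per library.

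Epithelial genes gave a like picture, at low levels and mainly in OKMS. Of 28 genes 27 were in the table, 9 were tested in R10 and 19 were at 0 in all WT libraries. In 18 of the 27 all 7 day 2 libraries, factor libraries included, had at most 3 reads. Of the 9, limma called 1 (7 at an unadjusted p under 0.05, 3 by edgeR and 2 by DESeq2). Of all genes limma called 0.714% higher, edgeR 1.89% and DESeq2 2.66%, and 15.2% had an unadjusted p under 0.05. Of 7 tested in both chemistries 2 were apart and higher, beside 4.18% of all genes. The sum over the 27 was 9.40 and 8.89 CPM in WT, 119 in OKMS and 54.5 in OKS in R10, 36.8, 96.1 and 18.7 CPM in R9, and 646 to 728 CPM in stem cells, so that in R9 only OKMS lay above WT. Perp, a desmosomal protein, was the 1 called member, at 0.391 and 0.329 CPM in WT, 34.8 in OKMS and 13.1 in OKS, and at 0, 46.3 and 2.67 CPM in R9 (4.04 ± 0.66, adjusted p = 0.0255). Its difference in uninduced NPCs was 1.13 in R10 and 0.10 in R9. Cdh1 (E-cadherin) was at 0 in the 3 WT libraries, at 8.69 and 3.73 CPM in R10 and at 7.91 and 1.34 in R9 (adjusted p = 0.080). Of 20 genes of trophoblast and endoderm 10 were in the table and 3 were tested in R10, of which Fetub and Apela, added to that list with their values known, were called.

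The named genes called lower were near 0 before the medium change and high in WT at day 2. C3, the central complement component and a marker of reactive astrocytes, was at 0.879 to 2.92 CPM in the R10 NPCs of all genotypes. At day 2 it was at 420 and 511 CPM in WT, 32.4 in OKMS and 82.1 in OKS, and at 180, 53.1 and 128 CPM in R9 (-3.14 ± 0.47, adjusted p = 0.021). S100g, a calcium-binding protein, was at 185 and 237 CPM in WT against 19 and 28.0, and at 120 against 39.6 and 62.8 in R9 (-3.13 ± 0.40, adjusted p = 0.011). Nppc, which encodes C-type natriuretic peptide, was at 151 and 75.1 CPM against 4.74 and 10.1, and at 19.8 against 12.4 and 8.02 in R9 (-3.75 ± 0.53, adjusted p = 0.016). For all 3 the factor libraries lay under the WT libraries of their chemistry and above the NPC libraries, where none exceeded 3.37 CPM. The fourth, an unannotated locus antisense to Grik3, is named only because there were 4, after its values were seen (R10 difference -3.28, R9 -1.27).

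Astrocyte genes other than C3 gave no limma call. The 25 astrocyte genes of the table summed to 16949 and 18307 CPM in WT, 7635 in OKMS and 15535 in OKS in R10, and to 16285, 9189 and 15206 CPM in R9, against 3903 to 6465 CPM in uninduced NPCs. Of the 25, 1 was called lower by limma (C3), 2 were by edgeR, and DESeq2 called 4 lower and 1 higher. In the count without a test 2 were apart and lower in both chemistries (C3 and Ccn5) and 1, Timp1, was apart and higher. Of all genes 1.65% were apart and lower and 4.18% apart and higher, and limma called 0.026% lower. Gfap, the astrocyte filament protein, was at 3015 and 1056 CPM in WT, 141 in OKMS and 546 in OKS, and at 236, 120 and 182 CPM in R9 (-2.68, adjusted p = 0.12). Its WT libraries were themselves far from each other. The marker sums of the mesenchymal list ran in the same order in R9, at 11020 CPM in WT, 6012 in OKMS and 10135 in OKS, but not in R10, where WT was at 4857 and 7927, OKMS at 3727 and OKS at 6676. The part of these shifts in the mitosis and growth differences was not tested.

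Neural progenitor markers gave no call. Of 21 tested limma called 0 (5 at an unadjusted p under 0.05, 0 by edgeR and 1, lower, by DESeq2), 1 (Sox21) was apart and higher, and the median difference was -0.67 in R10 and -0.11 in R9. Without a minimum difference, 2 of the 21 had all factor libraries above the WT libraries in both chemistries and 2 had them below. Of all 14715 genes tested in both, 1803 had them above and 1443 below, and 4.18% were apart and higher. The 23 progenitor markers summed to 17224 and 18627 CPM in WT, 5455 in OKMS and 10821 in OKS in R10. In R9 they summed to 7972, 6561 and 11774 CPM, so only OKMS lay under WT in both. Sox21, a neural repressor of the Sox family, held 7.05 and 10.54 CPM in WT and 28.5 and 28.4 with factors, and 12.7, 33.9 and 25.4 CPM in R9 (adjusted p = 0.18). Of 10 neuron markers tested, limma called 2, Stmn2 and Nefl (5 at an unadjusted p under 0.05, 3 by edgeR and 2 by DESeq2). Of all genes limma called 0.714% higher, edgeR 1.89% and DESeq2 2.66%, and 15.2% were at an unadjusted p under 0.05. In both chemistries 2 of the 10 were apart and higher, beside 4.18% of all genes. Stmn2, a microtubule regulator of growing axons, held 0.391 and 8.24 CPM in WT, 165 in OKMS and 51.9 in OKS, and 4.24, 128 and 8.02 CPM in R9 (4.71 ± 0.86, adjusted p = 0.040). It is no marker of neurons alone, as O4G stem cells held 241 to 434 CPM. Nefl, a neurofilament subunit, held 0 and 0.329 CPM in WT, 26.9 and 11.2 with factors, and 0, 18.1 and 0 CPM in R9, where OKS and WT were both at 0 (adjusted p = 0.0255 in R10). Over the 13 neuron genes in the table the summed level was 319 and 218 CPM in WT, 373 in OKMS and 377 in OKS in R10, and 296, 336 and 300 CPM in R9, most of it from Map2 and Gap43 in WT. Among the others at day 2 Elavl3 was at 0 to 0.373 CPM and Snap25 at 0 to 1.34. O4G stem cells held Nefl as well, at 51.1 to 94.5 CPM. Uninduced factor NPCs already differed from WT in R10, by 1.67 for Stmn2 and 1.02 for Nefl, with -0.55 and 0.23 in R9.

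The remaining lists had few calls, where limma called 0.714% of all genes higher and 0.026% lower. Shares over all genes were 1.89% higher and 0.279% lower by edgeR, and 2.66% and 0.605% by DESeq2. At an unadjusted p under 0.05 were 15.2% of all genes, while 4.18% were apart and higher and 1.65% apart and lower. Of 21 genes of the p53 and cell cycle inhibitor list limma called 0 (7 at an unadjusted p under 0.05, 0 by edgeR and 1 by DESeq2). Cdkn1a, the p21 inhibitor, was at 68.5 and 123 CPM in WT against 288 and 251 in R10 and at 209 against 390 and 278 in R9 (adjusted p = 0.13), under its 431 to 746 CPM in uninduced NPCs. Of 17 LIF and STAT3 genes 1 was called, the kinase gene Pim3, at 47.0 and 33.9 CPM against 164 and 252 (adjusted p = 0.036), with 100 against 119 and 119 in R9. Of that list Fos was apart in both chemistries, at 37.2 and 34.3 against 111 and 285 CPM and at 46.7 against 250 and 451 in R9 (adjusted p = 0.063). Of 14 Id and BMP genes, 17 interferon genes and 21 annotated lncRNAs limma called 0 (0, 4 and 3 at an unadjusted p under 0.05), with 0 calls by edgeR or DESeq2 except 1 lncRNA, lower by both, and 0 were apart. Of 23 mesenchymal genes limma, edgeR and DESeq2 called 0 (4 at an unadjusted p under 0.05) and 2 were apart and higher. Hmgb2, a chromatin protein of dividing cells, was the 1 called of 17 chromatin genes, at 14.9 and 18.1 CPM in WT against 311 and 87.7 (adjusted p = 0.033). Of 14 markers of blood, vessel, muscle and liver cells 7 were in the table and 4 tested, of which limma called 0 (2 at an unadjusted p under 0.05, and 1, lower, by edgeR and DESeq2), with Cdh5 at 0 in all day 2 libraries and Alb and Kdr apart and lower, Alb at 76.3 and 31.3 against 1.58 and 11.6 CPM (adjusted p = 0.10).

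Among noncoding genes apart in both chemistries, the lncRNA 2310043M15Rik was called, at 0.783 and 0 CPM in WT, 32.4 and 19.8 with factors, and 0, 22.6 and 16 CPM in R9 (4.30 ± 0.63, adjusted p = 0.020). Morrbid, a lncRNA next to Bcl2l11, held 0.391 and 11.5 CPM in WT against 36.4 and 47.4, and 21.2 against 46.3 and 54.8 in R9 (adjusted p = 0.12). Lockd, next to Cdkn1b, held 0.391 and 3.29 CPM against 26.9 and 14.6, and 5.66 against 31.6 and 21.4 in R9 (adjusted p = 0.090), with 31.1 to 89.6 CPM in the NPC libraries. The unannotated locus antisense to Zmynd8 held 0.783 and 0 CPM in WT against 25.3 and 24.6, and 0 against 12.4 and 10.7 in R9 (4.28 ± 0.62, adjusted p = 0.017). The sources used here do not say that reads were counted by strand, so reads of such a locus cannot be told from those of the gene it overlaps. Of 862 annotated lncRNAs tested in both chemistries 16 (1.86%) were apart and higher and 40 (4.64%) apart and lower, and of 1011 unannotated loci 29 (2.87%) and 49 (4.85%), beside 4.18% and 1.65% of all genes.

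A part of the R10 difference was already there in the uninduced R10 libraries, where library set and genotype cannot be told apart. Of the 110 genes called higher, 51 (46.4%) had a difference of at least 1 in uninduced R10 NPCs too, against 5.66% of all genes tested. In R9, 79 of the 110 (71.8%) had a difference of at least 1 at day 2, against 9.91% of all. Both held in 22 genes. A further 57 of the 110 (51.8%) had the R9 difference and no NPC difference of that size, beside 9.19% of all genes tested and 27.2% of those with an R10 difference of at least 1. Of the rest 29 had the NPC difference and not the R9 one and 2 had neither. The mitosis, replication, Hes5 and Nrarp calls were among the 57, and Pou5f1, Klf4, Fetub and Apela among the 22. Among the 110 were 5 of the 9 mitochondrial genes tested and loci antisense to mt-Co1, mt-Nd1, mt-Nd4l and mt-Rnr2. Day 2 differences of these mitochondrial loci in R9 ranged from -0.59 to 0.49. In uninduced R9 NPCs the differences were -1.04 (Pou5f1), 0.38 (Klf4), -1.10 (Fetub) and -0.16 (Apela). For these genes an NPC difference of at least 1 was thus seen in R10 only. The loci antisense to Srsf6 (1.27) and Trim50 (1.14) reached that size in R9 NPCs too. Among other genes near 0 in WT, R10 NPC differences were 2.53 (Trh), 1.86 (Aldh3a1) and 1.54 (Avil). Their R9 NPC differences were -0.61, 0 and 0.45. Pllp was at 0.98 in R10 NPCs and 1.44 in R9 NPCs. Actg2 (0.82), 1700019D03Rik (0.43) and Pga5 (0) had R10 NPC differences under 1.

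Of the 110, 14 had an R9 difference that was not above 0. Klf6, a Klf family factor, held 82.2 and 116 CPM in WT against 795 and 955 in R10 (3.15 ± 0.40, adjusted p = 0.010), but 451 against 330 and 453 in R9. Its R10 NPC libraries were apart in the same way, at 67.3 and 97.8 CPM in WT against 385 and 350, and its R9 NPC libraries were not, at 127 and 215 against 194 and 180. Top2b, the beta form of topoisomerase II, held 11.7 and 9.22 CPM in WT against 73.5 and 69.4 in R10 and 150 against 132 and 89.6 in R9, with R10 NPCs at 19.1 and 19.2 against 87.0 and 80.0. The mitochondrial gene mt-Nd6, a subunit of respiratory complex I, held 70.9 and 32.3 CPM against 288 and 448 in R10 and 845 against 472 and 935 in R9. Like the R10 mitochondrial share given above, which counts mt-Nd6 itself, these genes were higher in factor than in WT R10 libraries at both times. Between the WT R10 libraries of day 2, Klf6 was higher where the share was lower. Any link of these genes to that share was not tested. Genes described above also had an R10 NPC difference, such as Emp1, at 6.67 and 27.3 CPM against 61.5 and 74.2 in R10 NPCs, and Pim3, at 12.1 and 12.1 against 42.6 and 39.1.

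**Figure D5:**
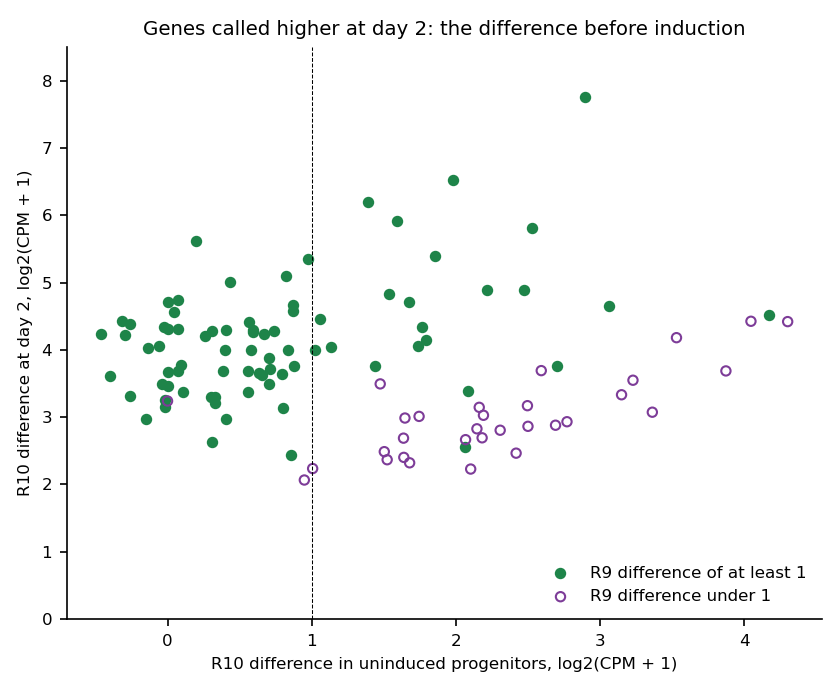
Day 2 difference in R10 (y axis) against the difference in uninduced R10 progenitors (x axis), both factor minus wild type in mean log2(CPM + 1), for the 110 genes called higher, with the R9 day 2 difference of at least 1 filled green and the rest open purple. Of the 31 open points 29 lie at or to the right of the dashed line at 1.

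A fit that subtracts the baseline asks how far the day 2 difference went beyond that of uninduced cells. In R10 limma called 0 of 16496 genes in it (1414 at an unadjusted p under 0.05, 8.57%), and edgeR called 0 too (1210 at an unadjusted p under 0.05). DESeq2 called 124 higher (1.03%) and 13 lower (0.108%). The estimates were 4.32 for Pou5f1, 4.86 for Fetub, 5.42 for Hes5, 4.36 for Cdc20 and -3.01 for C3, at limma adjusted p from 0.18 to 0.27. Hes1 (2.32), Emp1 (2.68) and Pim3 (0.64) had estimates well under their day 2 differences of 4.06, 4.90 and 2.32. In R9 limma called 0 of 19034 genes (1748 at an unadjusted p under 0.05, 9.18%), edgeR 112 higher (0.588%) and 6 lower (0.0315%), and DESeq2 23 (0.589%) and 1 (0.0256%).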

How the data were processed

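The gene table as deposited holds CPM values (reads of a gene scaled to the library total) for 23575 genes, and the transcript table as deposited holds TPM values for 276608 transcripts, both made by the authors from nanopore reads. The submitters' processing notes name minimap2 2.24-r1122 and mm10, and the settings of the counting step are not given in the sources used here. The deposited annotation and its classification table, per the file headers a list of transcript structures and other attributes, gave the coordinates and the coding bases of the factor transcripts. Per the labels' extract protocol R9 libraries were direct cDNA of poly(A)-enriched RNA and R10 libraries PCR cDNA of total RNA, whereas another label field names poly(A) RNA for all. Of its columns, 13 matched no sample and were not used.

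Differences were tested per chemistry with limma 3.58.1 (R 4.3.3) on log2(CPM + 1), without weights and with a trended prior, over genes at a CPM of at least 1 in as many libraries as the smaller group had. P-values were adjusted by Benjamini-Hochberg over all tested genes, and every adjusted p in the text is limma's unless another tool is named. A call needed an adjusted p under 0.05 and a difference of at least 1. Values of all libraries came out as whole reads (100% within 0.02 reads), on which edgeR 4.0.16 and DESeq2 1.42.0 were run as alternatives. The limma and edgeR fits, but not DESeq2, were tested on simulated data. In these limma on the 3 R9 libraries recovered no changed gene, so a count of 0 there says nothing on the size of differences. The baseline fit tested the day 2 difference minus the NPC difference. A fit with a replicate block is given only among the alternatives, since WT replicates share no more than a number.

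Named genes were the 4 factors, the 15 annotated genes with the largest R10 increase of those also higher in R9, the genes called lower, list members that were called with up to 2 others per list that were on one side in both chemistries, the 5 of opposite R9 sign, and the largest among noncoding loci and genes apart in both chemistries. Cdk1, Npm1, Notch1, Rbpj, Nanog, Timp1, Map2, Gap43, Elavl3, Snap25, Cdh5, Lin28a, Dppa3 and Sall4 were added after their values were seen. The comparison, its lists and its tests were chosen with earlier results of these data known. Promoters are from RefSeq (GRCm38.p6), matched by symbol. Alternatives were another pseudocount, filter or scaling, thinned reads, other tools, other sets of libraries and each library left out.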

Additional observations from a re-analysis of the deposited data

How the results depend on the processing

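The 114 R10 calls became 74 with a pseudocount of 0.25, 181 at a CPM of at least 5, 29 after quantile normalization, 399 after median centring, 334 with edgeR, 464 with DESeq2, 0 after thinning, 900 in a fit with the progenitor libraries and 245 with both chemistries in 1 fit. Leaving out 1 library gave 0 to 115. The 0 calls of R9 became 49 at a CPM of at least 5, 95 after median centring, 133 with edgeR, 14 with DESeq2 and 596 in the fit with the progenitor libraries. Leave-one-out fits of R9 could not be made, since no residual degree of freedom remains. The 0 baseline-adjusted calls of R10 became 137 with DESeq2, 40 with the replicate block and 298 with edgeR and the replicate block, and 0 to 1068 with 1 library left out, the highest without OKS at day 2. Those of R9 became 487 with a pseudocount of 0.25, 20 at a CPM of at least 5, 574 after quantile normalization, 17 after median centring, 118 with edgeR, 24 with DESeq2 and 732 after thinning, 0 with the replicate block by limma or edgeR, and 0 to 1849 with 1 library left out (1571 without OKMS and 1849 without OKS at day 2, and 915 without WT NPC replicate 2). The cause of these shifts was not tested. The replicate block joins OKMS and OKS to their own lines at both times, but WT libraries by replicate number alone. Deviations from the group means in R10 correlated at 0.43 for the WT pair and 0.03 for the factor pair, so pairing is not established, and the 40 blocked calls are not used elsewhere.

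Genes apart and higher in both chemistries numbered 205 at a difference of at least 2 (615 at 1) and 517 to 917 with 1 library left out. Those apart and lower numbered 4 (243 at 1) and 180 to 462, with 437 without WT R10 replicate 3 and 462 without OKS R10. Over 1262 pairs of a named gene and an R10 alternative, 0 changed sign, 232 lost the call and 100 gained it. Gm49207 in R9 changed sign with edgeR and DESeq2 (0.56 in each). In the baseline-adjusted R10 fit Tagln (0.56) changed sign with a pseudocount of 0.25 (-0.48), edgeR (-1.12), DESeq2 (-1.27), thinning (-0.31) and edgeR with the replicate block (-0.97), and Acta2 (-0.25) with thinning (0.32), while Acta2 went to -1.56 with a pseudocount of 0.25, -2.79 with edgeR, -3.18 with DESeq2 and -2.78 with edgeR and the replicate block. With 1 library left out Tagln ranged from -0.64 to 1.77, Acta2 from -0.96 to 0.46, Fos from -0.93 to 0.41, mt-Nd6 from -0.37 to 0.74, Gm49207 from -0.0859 to 1.43, Gm35339 from -1.63 to 0.23 and the locus antisense to Srsf6 (novelGene_Srsf6_AS) from -0.37 to 1.06. The depth of the R9 WT library limits what is seen there, as a gene under 1.41 CPM had no read.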

Other observations

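Further genes on one side in both chemistries had no call. Upp2, a uridine phosphorylase, held 16.4 and 25.7 CPM in the R10 WT libraries against 2.37 in OKMS and 5.22 in OKS, and 19.8 against 3.39 and 2.67 CPM in R9 (limma adjusted p = 0.13 in R10). Tmc4, a transmembrane channel-like protein, held 41.9 and 7.25 CPM in WT against 1.58 and 4.48, and 7.07 against 1.13 and 0 CPM in R9. Its WT libraries differ more from each other than the lower of them does from the factor libraries. Tubb3, a neuronal tubulin, held 11.7 and 13.8 CPM in WT against 54.5 and 48.1, and 4.24 against 45.2 and 17.4 CPM in R9 (limma adjusted p = 0.092).

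Wscd1 was called in R10, at 13.3 and 9.88 CPM in WT against 110 and 87.3 (limma adjusted p = 0.017), with 52.3 against 46.3 and 40.1 CPM in R9. In uninduced R10 NPCs it held 192 and 172 CPM in WT against 582 and 563, and in R9 NPCs 178 and 379 CPM in WT against 326 and 243, so the R10 order before induction was not seen in R9.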
